A study of Mus musculus with 2 samples.

Results

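DNA replication and S phase genes are described here as 51 named genes out of 23961 gene symbols in the deposited data. They were chosen by symbol for their known roles, with earlier results of these data known. All 51 were found, each on a single row, and all reached 1 FPKM (fragments scaled by transcript length and library depth) in at least 1 library, the level from which a gene counts as measured here. They were read by role, as 6 genes of origin licensing, 14 of the replicative helicase and origin firing, 18 of the polymerases and the fork, 5 of nucleotide supply and 8 of S phase entry and chromatin. The RNA came from bone marrow haematopoietic stem cells of untreated C57BL/6 mice kept under 12 h of light and 12 h of dark. A single library is labelled Per2def (Per2-deficient) and a single one Per2wt (wild type), so any difference is between these libraries and has no replicate check, no p-value and no standard error. Per2 is a clock gene whose protein holds back its own transcription. Which allele the Per2def mice carry, how many mice stand behind each library, their age and sex, and how the cells were isolated is not given in the sources used here. Differences are log2(FPKM + 1) in the Per2def-labelled library minus the same in the Per2wt-labelled library, which makes the change of a low gene look smaller than it was, and folds are plain ratios of FPKM, Per2def over Per2wt.

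Before a cell copies its DNA, the origin recognition complex with Cdc6 and Cdt1 loads the Mcm2 to Mcm7 ring onto origins, a step called licensing, which geminin blocks once S phase has begun. The kinase Cdc7 with Dbf4 and the cyclin-dependent kinases then bring Cdc45 and the GINS complex to the ring, which becomes the moving helicase that polymerases alpha, delta and epsilon follow. Most stem cells of adult bone marrow rest outside the cycle, while the progenitors next to them divide often, so the level of these RNAs in such a population depends on how many of its cells are in S phase. In a bulk library more cells in S phase and more RNA per such cell cannot be told apart.

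Per2 itself stood at 6.16 FPKM in the Per2def-labelled library and at 1.96 FPKM in the Per2wt-labelled library, a direction that runs against a plain loss of the transcript, and with the allele unknown it checks nothing. No read totals are in the files. The most common ratio among 3232 genes under 0.5 FPKM would be given by a Per2def-labelled library 1.24 times as deep, and neither absolute depth nor a counting interval can be stated. Cd34, a surface marker of stem and progenitor cells, was at 83.9 FPKM in the Per2def-labelled and 90.5 FPKM in the Per2wt-labelled library. Flt3, a receptor gene of multipotent progenitors, was at 51.4 FPKM in the Per2def-labelled and 48.8 FPKM in the Per2wt-labelled library. Slamf1, Fgd5 and Hoxb5, which mark the most immature stem cells, stayed under 1 FPKM in both libraries, so how far the libraries hold stem cells rather than progenitors is not known.

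Replication genes as a body stood slightly higher in the Per2def-labelled library. Of the 51 genes, 40 were higher there and 11 were lower, where 62% of all 11121 measured genes and 61.9% of the 8459 measured genes within the same range of mean FPKM (2.01 to 147, small and predicted RNAs left out) were higher. Their median difference was 0.11 on the log2(FPKM + 1) scale, against 0.05 for all measured genes. With the libraries scaled by the median of ratios, 39 of 51 were higher, against 51% of all measured genes, and the medians were 0.058 for the 51 genes and 0.0040 for all genes. Scaled by the upper quartile, the same number was higher, against 52.6% of all measured genes. Together the 51 genes summed to 1228 FPKM in the Per2def-labelled library and to 1145 FPKM in the Per2wt-labelled library.

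The shift was small gene by gene. On the FPKM + 1 scale 3 genes (Gins1, Prim2 and Cdt1) were at least 25% higher in the Per2def-labelled library, where 8.2% of all measured genes and 5.15% of genes at the same levels passed. None was lower by the same factor, where 4.38% of all measured genes and 3.05% of genes at the same levels were. None of the 51 reached 2-fold in either direction, as 2.25% of all measured genes and 0.366% of those at the same levels did. Prim2 (0.324) and Cdt1 (0.322) lay at the edge of the 25% threshold, and with any of the 3 other scalings Gins1 alone passed it. Folds ran from 0.919 for Prim1 to 1.40 for Gins1, and 45 of the 51 lay between 0.9 and 1.2. For the 2342 genes at 10 to 30 FPKM the middle 95% of differences ran from −0.32 to 0.38, and Gins1 was the one replication gene beyond it. No replication gene lay beyond the middle 95% among genes at 1 to 10 FPKM (−0.38 to 0.48) or at 30 to 150 FPKM (−0.34 to 0.31).

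**Figure D1:**
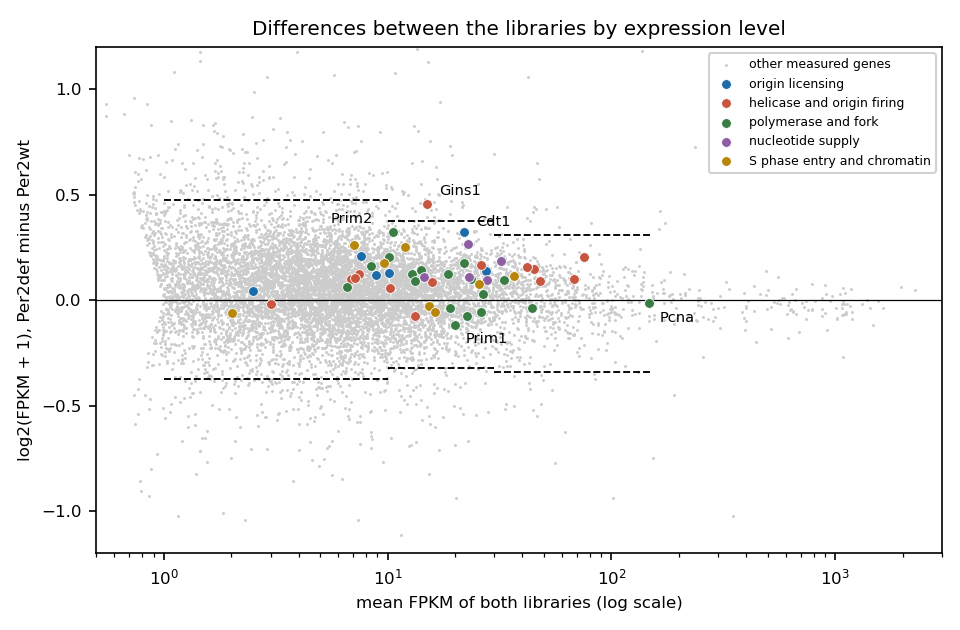
Difference between the libraries (log2(FPKM + 1), Per2def minus Per2wt) against the mean FPKM of both libraries on a log axis, for every measured gene other than small and predicted RNAs (grey; a few beyond ±1.2 are outside the frame) and for the 51 replication genes coloured by role. Dashed lines mark the middle 95% of all genes at 1 to 10, 10 to 30 and 30 to 150 FPKM, and Gins1 is the one replication gene outside them.

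Levels nearly kept their order between the libraries (Spearman's rho 0.989 across the 51 genes, which are not independent replicates). Pcna, the sliding clamp, was the most abundant, at 146.7 FPKM in the Per2def-labelled library and 148.0 FPKM in the Per2wt-labelled library. Mcm7, Mcm6 and Mcm3 followed it in both libraries. At the other end stood Ccne2, at 1.95 FPKM in the Per2def-labelled and 2.07 FPKM in the Per2wt-labelled library, below Orc1 and Gins3. A total of 48 of the 51 lay above the median level of measured genes (6.16 FPKM). FPKM are set per length, which allows only a rough comparison of levels between genes. Some of the 51 share exon bases with other genes, as described below.

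**Figure D2:**
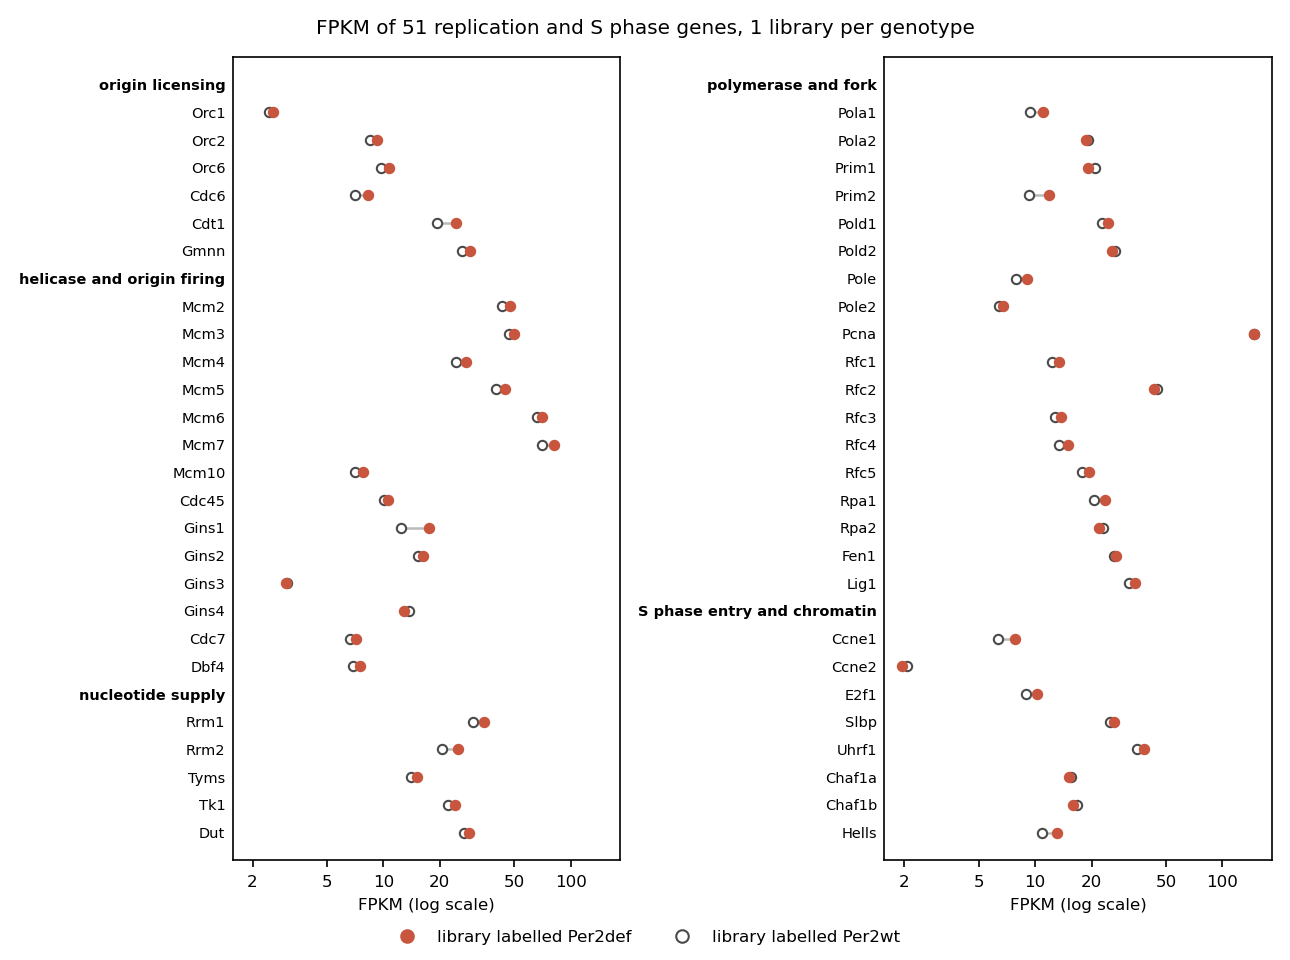
FPKM of each of the 51 genes on a log axis, grouped by role, in the library labelled Per2def (filled) and in the library labelled Per2wt (open), with no error bar since each genotype has 1 library. Most filled points lie just right of the open ones, the widest gap is that of Gins1 (17.4 FPKM in the Per2def-labelled and 12.4 FPKM in the Per2wt-labelled library), and those of Pcna overlap.

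Many replication genes are switched on at the start of S phase by E2F transcription factors, and their promoters are shown here because the genes tended to one side together. RefSeq promoter windows (250 bases before to 50 after a gene's start, GRCm38.p6) were at hand for 42 of the 51 genes, 50 windows in all, and are written as the gene reads. The table had no entry for Gmnn, Pole, Ccne2, Mcm4, Gins1, Gins2, Gins4, Prim2 and Rfc2. An E2F form (TTTCCCGC, TTTCGCGC, TTTGGCGC or TTTGCCGC, searched like the other motifs on both strands, and a window with any of these forms, overlapping or not, counted once) was in 15 of the 50 windows (30%), against 413 of 9975 windows of measured genes (4.14%) and 744 of all 32851 windows (2.26%). The pentamer CCAAT was in 27 of the 50 (54%, against 37.9% of windows of measured genes and 37.4% of all windows), the E-box CACGTG in 7 (14%, against 10.3% and 7.15%), and TTTGAA or TTCGAA in 10 (20%, against 13.7% and 19.2%). A match in letters is a description of the window and not evidence of binding. The E2F form closest to the start of each of the 15 genes is printed with up to 10 bases on either side, and capitals mark the form or its reverse complement.
Cdt1, chr8:122568037-122568064, plus strand: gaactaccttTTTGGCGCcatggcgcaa
Hells, chr19:38930918-38930945, plus strand: accaccgggtTTTCCCGCgaaagagaag
Cdc6, chr11:98908003-98908030, plus strand: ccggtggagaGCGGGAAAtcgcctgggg
Mcm7, chr5:138171850-138171877, minus strand: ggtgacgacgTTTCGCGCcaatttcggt
Pola1, chrX:93632276-93632303, minus strand: tcatcacaggGCGCCAAAtgcactcccg
Mcm5, chr8:75109350-75109377, plus strand: aagaactttcGCGCCAAAacgtccagcc
Uhrf1, chr17:56304118-56304145, plus strand: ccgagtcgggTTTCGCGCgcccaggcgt
Pold1, chr7:44548766-44548786, minus strand: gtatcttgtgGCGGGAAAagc
Mcm6, chr1:128359735-128359762, minus strand: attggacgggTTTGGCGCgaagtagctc
Lig1, chr7:13278842-13278869, plus strand: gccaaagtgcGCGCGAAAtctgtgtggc
Mcm3, chr1:20820276-20820303, minus strand: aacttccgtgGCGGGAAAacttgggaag
Rfc3, chr5:151651191-151651218, minus strand: tttcgcgctcGCGGGAAAactctactgt
Pole2, chr12:69228163-69228190, minus strand: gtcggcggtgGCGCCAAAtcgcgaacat
Orc1, chr4:108579417-108579444, plus strand: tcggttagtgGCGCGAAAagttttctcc
Gins3, chr8:95633508-95633535, plus strand: cgagtgcggcGCGGGAAAgcgagtttga

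The 15 genes with an E2F form had a median difference of 0.10, with 14 of 15 higher in the Per2def-labelled library. The 27 genes without one had a median of 0.11, with 20 of 27 higher. Among all measured genes 62% were higher. The exception among the 15 was Gins3, at 3.001 FPKM in the Per2def-labelled and 3.06 FPKM in the Per2wt-labelled library. The difference between these groups was not tested, and the 9 genes without a window, Gins1 and Prim2 among them, are in neither. Whole windows are printed for the 3 highest and the 2 lowest genes by difference among those at 5 FPKM or more with a window, so that both ends can be read side by side. Capitals mark E2F forms and CCAAT boxes. The windows are chr8:122567765-122568064 for Cdt1, chr12:24708004-24708303 for Rrm2 and chr4:132768110-132768409 for Rpa2, with chr10:128014965-128015264 for Prim1, all on the plus strand, and chr7:38107441-38107740 on the minus strand for Ccne1.
Cdt1: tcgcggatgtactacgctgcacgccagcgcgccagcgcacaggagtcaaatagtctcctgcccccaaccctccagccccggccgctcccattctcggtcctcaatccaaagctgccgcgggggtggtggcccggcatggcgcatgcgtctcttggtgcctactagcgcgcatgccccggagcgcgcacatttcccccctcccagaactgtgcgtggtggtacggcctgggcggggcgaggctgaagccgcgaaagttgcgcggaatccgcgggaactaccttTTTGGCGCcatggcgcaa
Rrm2: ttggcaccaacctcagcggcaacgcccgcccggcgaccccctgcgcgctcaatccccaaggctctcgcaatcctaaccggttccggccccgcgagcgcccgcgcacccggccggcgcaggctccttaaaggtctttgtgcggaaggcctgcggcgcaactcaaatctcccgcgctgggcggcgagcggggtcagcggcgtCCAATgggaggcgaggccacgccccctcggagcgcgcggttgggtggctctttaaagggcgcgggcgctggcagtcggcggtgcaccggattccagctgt
Ccne1: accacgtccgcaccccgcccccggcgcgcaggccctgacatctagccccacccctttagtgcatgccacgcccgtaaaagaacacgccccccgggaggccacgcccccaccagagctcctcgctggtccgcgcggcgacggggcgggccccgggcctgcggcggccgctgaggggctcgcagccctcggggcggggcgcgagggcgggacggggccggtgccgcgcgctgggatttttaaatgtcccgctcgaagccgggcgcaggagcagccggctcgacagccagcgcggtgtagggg
Rpa2: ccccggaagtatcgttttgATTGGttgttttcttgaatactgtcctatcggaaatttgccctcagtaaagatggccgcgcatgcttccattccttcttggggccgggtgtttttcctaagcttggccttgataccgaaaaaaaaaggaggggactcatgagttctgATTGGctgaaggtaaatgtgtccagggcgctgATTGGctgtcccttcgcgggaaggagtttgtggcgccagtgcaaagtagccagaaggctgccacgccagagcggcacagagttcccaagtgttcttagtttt
Prim1: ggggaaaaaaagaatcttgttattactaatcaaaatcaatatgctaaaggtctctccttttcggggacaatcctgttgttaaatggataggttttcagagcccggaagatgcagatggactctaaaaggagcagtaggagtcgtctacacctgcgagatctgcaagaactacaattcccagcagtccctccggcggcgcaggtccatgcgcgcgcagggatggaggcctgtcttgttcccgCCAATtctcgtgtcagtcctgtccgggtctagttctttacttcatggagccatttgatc
Cdt1 carries 1 E2F form, 32 bases after its start, Rrm2 has 1 CCAAT box 50 bases before its start, and Ccne1 has neither in this window. Of the lower genes, Rpa2 has 3 CCAAT boxes (written ATTGG, on the other strand) and Prim1 has 1, which lies 9 bases before its start.

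All 6 origin licensing genes were higher in the Per2def-labelled library (62% of all measured genes were), with a median difference of 0.13. Cdt1 (ENSMUSG00000006585.3, chromosome 8, 122568015 to 122573554, GRCm38), which loads the helicase ring, stood at 24.4 FPKM in the Per2def-labelled library and at 19.3 FPKM in the Per2wt-labelled library (1.26-fold, difference 0.32). Gmnn, the gene of geminin, the inhibitor of Cdt1, stood at 29.02 FPKM in the Per2def-labelled and 26.2 FPKM in the Per2wt-labelled library (difference 0.14). The ratio of Cdt1 to Gmnn was thus 0.841 in the Per2def-labelled library and 0.736 in the Per2wt-labelled library. Cdc6, the ATPase that works with Cdt1, was at 8.26 FPKM in the Per2def-labelled and 7.02 FPKM in the Per2wt-labelled library (0.21). The origin recognition subunits Orc1, Orc2 and Orc6 differed by 0.05 to 0.13. Orc6 was at 10.7 FPKM in the Per2def-labelled and 9.70 FPKM in the Per2wt-labelled library, and Orc2 at 9.29 FPKM in the Per2def-labelled and 8.46 FPKM in the Per2wt-labelled library. Orc1, the subunit that comes and goes with the cycle, was the scarcest of them, at 2.56 FPKM in the Per2def-labelled and 2.45 FPKM in the Per2wt-labelled library (0.05, close to the median of all genes).

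The 6 genes of the Mcm ring were all a little higher in the Per2def-labelled library (62% of all measured genes were), with folds from 1.07 to 1.15. They summed to 320.7 FPKM in the Per2def-labelled library and to 289.5 FPKM in the Per2wt-labelled library (1.11-fold). Mcm7 was the highest of them, at 81.1 FPKM in the Per2def-labelled and 70.2 FPKM in the Per2wt-labelled library (0.21). Mcm4 was the lowest, at 27.6 FPKM in the Per2def-labelled and 24.5 FPKM in the Per2wt-labelled library (0.17). The other 4 lay between these. Mcm6 was at 70.4 FPKM in the Per2def-labelled and 65.6 FPKM in the Per2wt-labelled library, and Mcm3 at 49.8 FPKM in the Per2def-labelled and 46.6 FPKM in the Per2wt-labelled library. Mcm2 was at 47.6 FPKM in the Per2def-labelled and 42.9 FPKM in the Per2wt-labelled library, and Mcm5 at 44.3 FPKM in the Per2def-labelled and 39.6 FPKM in the Per2wt-labelled library. The ring holds one copy of each protein, yet its RNAs spanned a range of 2.94-fold in the Per2def-labelled library and of 2.87-fold in the Per2wt-labelled library. The Mcm7 row also takes in exon bases of Mir25, a microRNA whose own row was listed at 0 in the Per2def-labelled library and at 165.1 FPKM in the Per2wt-labelled library, and how reads were shared between them is not known.

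The partners that turn the ring into a helicase were less even. Gins1 (ENSMUSG00000027454.10, chromosome 2, 150905400 to 150931280), a subunit of GINS, had the widest difference of the 51 genes, at 17.4 FPKM in the Per2def-labelled library and 12.4 FPKM in the Per2wt-labelled library (1.40-fold, 0.46). The other subunits of the same complex did not share it. Gins2 was at 16.4 FPKM in the Per2def-labelled and 15.3 FPKM in the Per2wt-labelled library (0.09), and Gins4 at 12.9 FPKM in the Per2def-labelled and 13.7 FPKM in the Per2wt-labelled library (−0.08). Gins3, whose values stand above, was also on the lower side (−0.02). The exons of Gins2 share 2758 bases with Gse1 on the opposite strand. Gins1 has the shortest longest coding transcript of the 51 genes (1087 bases), and a short transcript collects fewer fragments at a given FPKM. Cdc45, the third part of the helicase, was at 10.5 FPKM in the Per2def-labelled and 10.1 FPKM in the Per2wt-labelled library (0.06), and Mcm10, which helps the helicase to start, at 7.79 FPKM in the Per2def-labelled and 7.05 FPKM in the Per2wt-labelled library (0.13). The kinase that fires origins was at matched levels for both of its genes. Cdc7, the catalytic part, stood at 7.15 FPKM in the Per2def-labelled and 6.60 FPKM in the Per2wt-labelled library, and Dbf4, its activator, at 7.48 FPKM in the Per2def-labelled and 6.88 FPKM in the Per2wt-labelled library, each with a fold of 1.08 to 1.09.

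Polymerase and fork genes lay on both sides, with 12 of 18 higher in the Per2def-labelled library and a median difference of 0.09. This share is near the 62% of all measured genes, and 11 of the 18 lay above the median of all measured genes. Within polymerase alpha and primase, which lay down the first stretch of each new strand, the large subunit of each was higher and the small one was not. Pola1, the catalytic subunit of the polymerase, was at 10.97 FPKM in the Per2def-labelled and 9.39 FPKM in the Per2wt-labelled library (0.20), and Pola2, its accessory subunit, at 18.7 FPKM in the Per2def-labelled and 19.2 FPKM in the Per2wt-labelled library (−0.04). Prim2 (ENSMUSG00000026134.11, chromosome 1, 33453810 to 33669795), the large primase subunit, was at 11.9 FPKM in the Per2def-labelled and 9.31 FPKM in the Per2wt-labelled library (1.28-fold, 0.32). Prim1 (ENSMUSG00000025395.14, chromosome 10, 128015168 to 128030037), the catalytic primase subunit, was the lowest of the 51 by difference, at 19.2 FPKM in the Per2def-labelled and 20.8 FPKM in the Per2wt-labelled library (0.919-fold, −0.12). The 4 genes together gave 60.7 FPKM in the Per2def-labelled library and 58.7 FPKM in the Per2wt-labelled library.

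The replicative polymerases themselves showed small differences. Pole, the catalytic subunit of polymerase epsilon that makes the leading strand, was at 8.996 FPKM in the Per2def-labelled and 7.93 FPKM in the Per2wt-labelled library (0.16), with its partner Pole2 at 6.75 FPKM in the Per2def-labelled and 6.42 FPKM in the Per2wt-labelled library (0.06). Pold1, the catalytic subunit of the lagging-strand polymerase delta, was at 24.4 FPKM in the Per2def-labelled and 22.7 FPKM in the Per2wt-labelled library (0.10), while its partner Pold2 was at 25.7 FPKM in the Per2def-labelled and 26.7 FPKM in the Per2wt-labelled library (−0.06). With Pold3 and Pold4 added, polymerase delta summed to 72.7 FPKM in each library.

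Of the clamp and its loader, Pcna differed by −0.01. The loader subunits Rfc1, Rfc3, Rfc4 and Rfc5 ran from 13.4 to 19.4 FPKM in the Per2def-labelled library and from 12.3 to 17.8 FPKM in the Per2wt-labelled library, all 4 higher in the Per2def-labelled library with differences of 0.09 to 0.14. Rfc2 stood apart in level and in side, at 43.4 FPKM in the Per2def-labelled and 44.6 FPKM in the Per2wt-labelled library (−0.04), and its exons share 952 bases with Lat2 on the opposite strand. Replication protein A, which covers single-stranded DNA, was split as well. Rpa1, its large subunit, was at 23.5 FPKM in the Per2def-labelled and 20.6 FPKM in the Per2wt-labelled library (0.18), and Rpa2 at 21.9 FPKM in the Per2def-labelled and 23.2 FPKM in the Per2wt-labelled library (−0.07). The enzymes that join Okazaki fragments were close between the libraries, with the flap nuclease gene Fen1 at 27.1 FPKM in the Per2def-labelled and 26.5 FPKM in the Per2wt-labelled library (0.03) and the ligase gene Lig1 at 34.1 FPKM in the Per2def-labelled and 31.8 FPKM in the Per2wt-labelled library (0.10). Fen1 moved to the lower side when libraries were scaled by the median of ratios or the upper quartile, the one gene of the 51 whose side depended on scaling.

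All 5 nucleotide supply genes were higher in the Per2def-labelled library (62% of all measured genes were), with a median difference of 0.11. Ribonucleotide reductase, which makes the building blocks of DNA from those of RNA, had both genes on that side. Rrm2, the subunit whose level limits the enzyme in S phase, was at 24.9 FPKM in the Per2def-labelled and 20.6 FPKM in the Per2wt-labelled library (1.21-fold, 0.26), and Rrm1, the large subunit, at 34.2 FPKM in the Per2def-labelled and 29.9 FPKM in the Per2wt-labelled library (0.19). The ratio of Rrm2 to Rrm1 was 0.729 in the Per2def-labelled library and 0.688 in the Per2wt-labelled library. The thymidine genes differed by less. Tyms, thymidylate synthase, was at 15.2 FPKM in the Per2def-labelled and 13.999 FPKM in the Per2wt-labelled library (0.11), and Tk1, the thymidine kinase of S phase, at 24.0 FPKM in the Per2def-labelled and 22.1 FPKM in the Per2wt-labelled library (0.11). Dut, which removes dUTP, was at 28.6 FPKM in the Per2def-labelled and 26.8 FPKM in the Per2wt-labelled library (0.09). A separate row for a Tyms pseudogene, Tyms-ps, held 4.29 FPKM in the Per2def-labelled and 4.21 FPKM in the Per2wt-labelled library, and reads may be shared between the 2 rows.

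Genes of S phase entry and chromatin were higher in the Per2def-labelled library in 5 of 8 cases (median 0.10), a share like the 62% of all measured genes. The cyclin E genes, whose products drive the kinase Cdk2 at the start of S phase, went to different sides. Ccne1 was at 7.78 FPKM in the Per2def-labelled and 6.34 FPKM in the Per2wt-labelled library (1.23-fold, 0.26), and Ccne2 differed by −0.06 at its low level, which put the ratio of Ccne2 to Ccne1 at 0.250 in the Per2def-labelled library and at 0.327 in the Per2wt-labelled library. E2f1, the activator of many of these genes, was at 10.3 FPKM in the Per2def-labelled and 8.98 FPKM in the Per2wt-labelled library (0.18). Hells, a helicase that remodels chromatin for DNA methylation, was at 13.1 FPKM in the Per2def-labelled and 10.8 FPKM in the Per2wt-labelled library (0.25). Uhrf1, which recruits the maintenance DNA methyltransferase, was at 38.2 FPKM in the Per2def-labelled and 35.2 FPKM in the Per2wt-labelled library (0.11). Slbp, which binds the stem-loop of histone RNAs, was at 26.4 FPKM in the Per2def-labelled and 25.0 FPKM in the Per2wt-labelled library (0.08). Both large subunits of the chromatin assembly factor CAF-1, which places histones behind the fork, were on the lower side. Chaf1a was at 15.2 FPKM in the Per2def-labelled and 15.5 FPKM in the Per2wt-labelled library (−0.03), with 4648 exon bases shared with Ubxn6 on the opposite strand, and Chaf1b at 15.96 FPKM in the Per2def-labelled and 16.6 FPKM in the Per2wt-labelled library (−0.06).

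Other replication genes and genes of E2F, RB and CDK2 control had medians near that of the 51 genes (0.11). Of 35 further replication genes 27 were higher in the Per2def-labelled library, with a median difference of 0.13, and 3 were at least 25% higher on the FPKM + 1 scale. Among all measured genes 62% were higher and 8.2% were at least 25% higher. The 3 replication genes were Orc5, Wdhd1 and the fork protection gene Timeless (0.35). Orc5, an origin recognition subunit, was at 7.96 FPKM in the Per2def-labelled and 5.68 FPKM in the Per2wt-labelled library (0.42). Wdhd1, the polymerase alpha tether, was at 12.2 FPKM in the Per2def-labelled and 9.37 FPKM in the Per2wt-labelled library (0.35). Among 29 genes of E2F, RB and CDK2 control 22 were higher, with a median of 0.13, 4 of them by at least 25%. Of these, Mybl2, a cell cycle transcription factor, was at 9.36 FPKM in the Per2def-labelled and 7.16 FPKM in the Per2wt-labelled library (0.34), and Tfdp2, a partner of E2F proteins, at 6.89 FPKM in the Per2def-labelled and 5.24 FPKM in the Per2wt-labelled library (0.34). The others, E2f2 and Cdkn1c, were at low levels. E2f2 stood at 2.67 FPKM in the Per2def-labelled and 1.76 FPKM in the Per2wt-labelled library. Cdkn1c stood at 1.07 FPKM in the Per2def-labelled and 0.589 FPKM in the Per2wt-labelled library. Since Cdkn1c reached 1 FPKM only in the Per2def-labelled library, the limit for measured genes fixed its side. The phosphatase gene Cdc25a differed by 0.23, Cdk2 by 0.17 and Ccna2, the cyclin A gene of S phase and G2, by 0.14. The 27 further nucleotide synthesis genes had 20 higher and a median of 0.07, against 0.05 for all measured genes, and 15 lay above the latter. Among them the mitochondrial thymidine kinase Tk2 was at 5.12 FPKM in the Per2def-labelled and 3.56 FPKM in the Per2wt-labelled library (0.42). There Dck, a kinase of the deoxynucleoside salvage route, differed by 0.29 and Gmps, a gene of guanine nucleotide synthesis, by 0.28.

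Genes of G2 and mitosis stood on the other side. Of 38 listed genes 29 were lower in the Per2def-labelled library and 9 were higher, with a median difference of −0.07. Among all measured genes 62% were higher. None of the 38 was 25% or more apart on the FPKM + 1 scale. Of all measured genes 8.2% were at least 25% higher and 4.38% at least 25% lower. The motor gene Kif11 was at 8.76 FPKM in the Per2def-labelled and 10.7 FPKM in the Per2wt-labelled library (−0.26), the spindle checkpoint gene Bub1b at 11.5 FPKM in the Per2def-labelled and 13.9 FPKM in the Per2wt-labelled library (−0.25), and Ccnb2, a mitotic cyclin gene, differed by −0.23. Top2a, which untangles replicated DNA, was at 37.7 FPKM in the Per2def-labelled and 39.2 FPKM in the Per2wt-labelled library (−0.06). Mki67, the common proliferation marker, went the other way from most of its list, at 25.2 FPKM in the Per2def-labelled and 22.4 FPKM in the Per2wt-labelled library (0.16). This list and the replication genes have no gene in common, and both belong to the same 2 libraries.

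**Figure D3:**
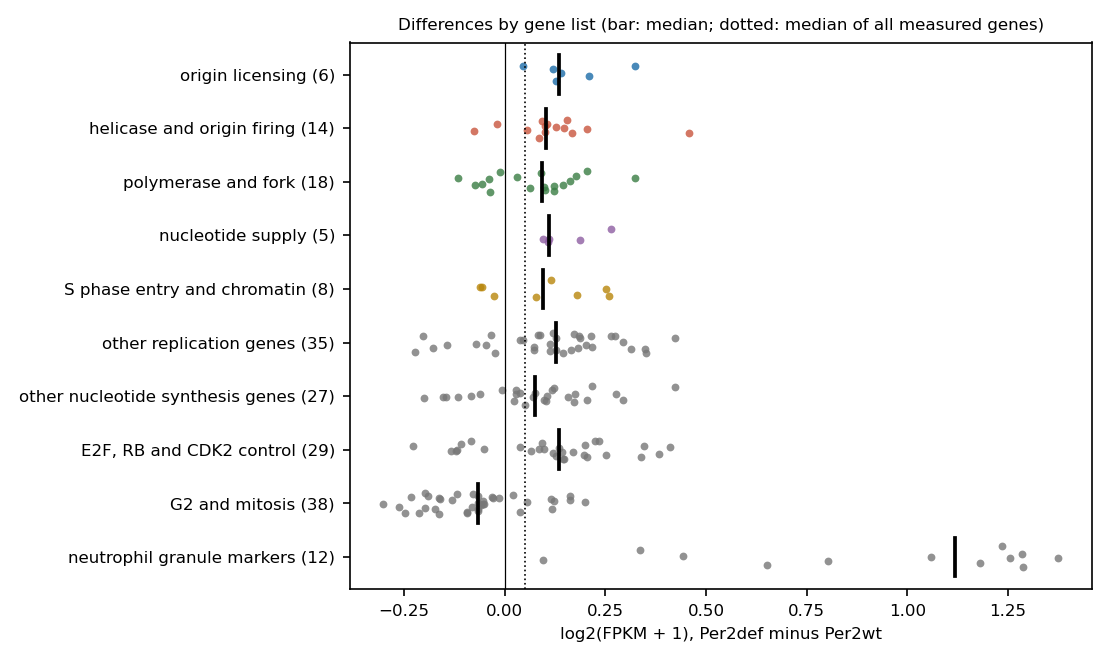
Difference between the libraries (log2(FPKM + 1), Per2def minus Per2wt) for each measured gene of the 5 role groups of replication genes (coloured), 4 other lists and neutrophil granule markers (grey), with the number of genes in brackets; bars are medians and the dotted line is the median of all measured genes, 0.05. All 5 role medians lie right of that line (0.09 to 0.13), the G2 and mitosis median lies at −0.07 and the neutrophil median at 1.12.

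Markers of other cell types also differed between the libraries. For the counts that follow, 62% of all measured genes were higher in the Per2def-labelled library. Some sides in these counts were fixed by the 1 FPKM limit for measured genes. Cd3g (1.41 FPKM in the Per2def-labelled and 0.266 FPKM in the Per2wt-labelled library) reached it only in the Per2def-labelled library. Tek, Alas2 and Hbb-bs reached it only in the Per2wt-labelled library. All 12 neutrophil granule markers were higher in the Per2def-labelled library, with a summed level of 1014 FPKM there and 529 FPKM in the Per2wt-labelled library and a median difference of 1.12. The most abundant by mean were S100a8 (266 FPKM in the Per2def-labelled and 109 FPKM in the Per2wt-labelled library, difference 1.28) and Mpo, the myeloperoxidase gene (181 FPKM in the Per2def-labelled and 143 FPKM in the Per2wt-labelled library, difference 0.34). Of 12 erythroid markers 8 were higher (median difference 0.27, mean −0.28), with sums of 723 FPKM in the Per2def-labelled and 681 FPKM in the Per2wt-labelled library, Car1 at 294 FPKM in the Per2def-labelled and 177 FPKM in the Per2wt-labelled library and Car2 at 196 FPKM in the Per2def-labelled and 152 FPKM in the Per2wt-labelled library. The globin genes were among the 4 lower ones, with Hba-a1 at 115 FPKM in the Per2def-labelled and 193 FPKM in the Per2wt-labelled library and Hbb-bs, which has a near-identical copy, at 0.00297 FPKM in the Per2def-labelled and 29.2 FPKM in the Per2wt-labelled library. The 16 stem and multipotent progenitor markers summed to 276 FPKM in the Per2def-labelled and 277 FPKM in the Per2wt-labelled library, with 5 of 13 measured genes higher. The widest differences among the 13 were those of Cd48 (0.47) and Hlf (−0.34), on different sides. Megakaryocyte markers (3 of 6 measured genes higher) summed to 36.2 FPKM in the Per2def-labelled and 38.2 FPKM in the Per2wt-labelled library, with Pf4 at 13.9 FPKM in the Per2def-labelled and 15.8 FPKM in the Per2wt-labelled library and Itga2b differing by 0.0097. Lymphocyte markers (4 of 5 measured genes higher) summed to 42.5 FPKM in the Per2def-labelled and 34.8 FPKM in the Per2wt-labelled library, mostly from Nkg7 and Cd79b, with Pax5 listed at 0 in the Per2def-labelled library and at 0.0434 FPKM in the Per2wt-labelled library. The part of such cells, many of which divide, in the levels of the replication genes was not tested.

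Transcript length moved with the difference across all genes. Genes at the levels of the replication genes were put in 5 equal groups by their longest coding transcript (GENCODE M21), and the median difference was −0.0029 for those of 312 to 1758 bases, 0.02, 0.05 and 0.06 for the groups between, and 0.08 for those of 4999 bases or more. Spearman's rho between length and difference was 0.17 across these 8139 genes and 0.22 across the 51 replication genes, in both cases over genes of the same libraries. Set against genes of their own length group, 39 of the 51 replication genes lay above the median, with a median excess of 0.06, while 7 of the 38 G2 and mitosis genes did, with a median of −0.13. The part of transcript length in single differences was not tested.

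**Figure D4:**
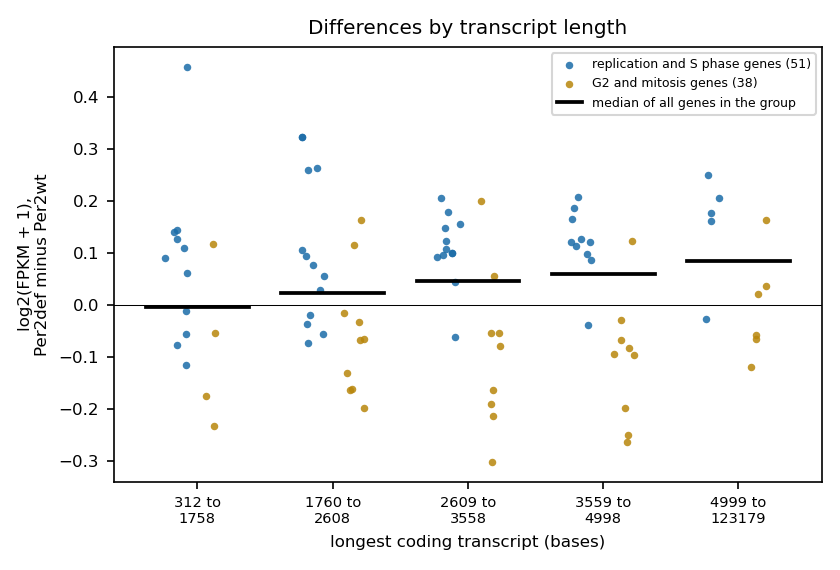
Difference between the libraries (log2(FPKM + 1), Per2def minus Per2wt) in 5 groups of genes by longest coding transcript in bases, with the median of all genes at these levels as a black bar, the 51 replication genes in blue and the 38 G2 and mitosis genes in ochre. The bars climb from −0.0029 to 0.08, most blue points lie above the bar of their group and most ochre points below it.

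The 51 genes lie on 15 chromosomes. Per2 is on chromosome 1 with 4 of them (Mcm3, Mcm6, Orc2 and Prim2), of which Orc2 is nearest at 32.9 Mb, so none lies within 10 Mb of Per2. A total of 18 genes share annotated exon bases with another gene, 16 of them with one on the opposite strand, and since the strand setting used in counting is not given, reads of such pairs cannot be told apart with certainty. Gins1, Cdt1, Prim2, Rrm2, Ccne1 and Prim1, which hold the ends of the range, share exon bases with no other annotated gene.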

How the data were processed

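Poly(A) RNA of bone marrow stem cells was sequenced in 2 libraries, grouped by their genotype label (1 Per2def, 1 Per2wt). Per the labels' protocols, total RNA (100 ng) was TRIzol-extracted, selected on oligo(dT) beads and made into strand-marked libraries with 15 PCR cycles. The deposited values are FPKM per gene from Cufflinks, per the file headers. The submitters' processing notes also name CASAVA 1.8, TopHat, Bowtie2 and GRCm38 (mm10). No source used here gives other versions, the annotation, the filters or the strand setting. A Cufflinks status flag, a deposited column of words, marks rows without an estimate.

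Of 24487 rows per file, 9 without an estimate and 27 whose symbols had become dates were left out, and rows sharing a symbol were summed. A gene was measured (11121 genes) if either library reached 1 FPKM. The difference was log2(FPKM + 1), Per2def minus Per2wt. Without replicates no test was made. Members and lists were chosen with earlier results of these data known. All members are named. From each pathway list the 3 widest differences at 5 FPKM or more are named, with Mki67, Top2a, Cdk2, Ccna2 and Timeless, and from each marker list the 2 most abundant genes by mean FPKM. A gene that the rule also names is not reported here. Slamf1, Fgd5, Hoxb5, Cd48, Hlf, Pold3, Pold4, Tyms-ps, Mir25, the globins and the genes overlapping members fall outside that rule. E2f2, Cdkn1c, Cd3g, Tek and Alas2 do as well. Positions and lengths are from GENCODE M21 (GRCm38) and promoter windows from RefSeq (GRCm38.p6). The measures were tested on simulated data. Python 3.11.15, pandas 2.3.3 and numpy 2.4.6 were used. Alternatives were 3 scalings, pseudocounts of 0.1 and 0.5 FPKM, no filter, the highest row per symbol, a floor of 5 FPKM, means in place of medians and a 1.5-fold threshold.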

Additional observations from a re-analysis of the deposited data

How the results depend on the processing

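The medians of the 51 genes, their 5 role groups and the 4 pathway lists kept their side of 0 under each alternative run, and the count of the 51 genes on the higher side did not move by 1.5 times. The size of the medians followed the scaling of the libraries. Scaled by the median of ratios, they were 0.0578 for all 51 replication genes, 0.0822 for origin licensing, 0.0554 for the helicase and origin firing, 0.0414 for the polymerases and fork, 0.0580 for nucleotide supply, 0.0422 for S phase entry and chromatin, 0.0747 for other replication genes, 0.0233 for other nucleotide synthesis genes, 0.0803 for E2F, RB and CDK2 control and −0.115 for G2 and mitosis. Scaled by the upper quartile, they were 0.0644 for all 51, 0.0619 for the helicase and origin firing, 0.0485 for the polymerases and fork, 0.0652 for nucleotide supply, 0.0495 for S phase entry and chromatin, 0.0820 for other replication genes, 0.0302 for other nucleotide synthesis genes, 0.0876 for E2F, RB and CDK2 control and −0.109 for G2 and mitosis. By construction these scalings bring the median of all measured genes close to 0 (0.0040 and 0.010). Set against genes of the same transcript length, a comparison chosen after seeing the data, medians were 0.0645 for all 51, 0.0603 for the helicase and origin firing, 0.0584 for the polymerases and fork, 0.0540 for S phase entry and chromatin, 0.0680 for other replication genes, 0.0197 for other nucleotide synthesis genes and −0.135 for G2 and mitosis. The count of genes at least 25% higher was 1 under the median of ratios, 1 under the fixed total and 1 under the upper quartile, and 0 genes were 1.5-fold higher. A median was called moved when it differed by over 1.5 times, since no replicate spread exists. Leaving out a replicate was not possible with 1 library per genotype. No paired analysis was possible because each genotype has 1 library and no test was made. Absolute depth is unknown, so the counting error of low genes such as Ccne2, Orc1 and Gins3 cannot be given.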

Other observations

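Values of 4 genes of the fork and its checkpoint outside the 51 are given here. They were picked after their values were seen, so they support nothing further. Timeless, a scaffold of the fork protection complex with a relative in the fly clock, was at 16.6 FPKM in the Per2def-labelled library and 12.8 FPKM in the Per2wt-labelled library (1.29-fold). Its partner Tipin was at 31.8 FPKM in the Per2def-labelled and 25.4 FPKM in the Per2wt-labelled library (difference 0.31). Claspin, encoded by Clspn, links this complex to the checkpoint kinase and was at 7.79 FPKM in the Per2def-labelled and 7.10 FPKM in the Per2wt-labelled library (1.10-fold). Topbp1, which activates the checkpoint kinase ATR, was at 21.6 FPKM in the Per2def-labelled and 19.02 FPKM in the Per2wt-labelled library (1.13-fold).

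Accessory subunits of the polymerases and of replication protein A lay on both sides. Pole4, a histone-fold subunit of polymerase epsilon, was at 12.96 FPKM in the Per2def-labelled and 15.1 FPKM in the Per2wt-labelled library (0.860-fold). Pold4, the smallest subunit of polymerase delta, was at 9.25 FPKM in the Per2def-labelled and 10.3 FPKM in the Per2wt-labelled library (0.896-fold). Rpa3, the smallest part of replication protein A, was at 21.3 FPKM in the Per2def-labelled and 24.3 FPKM in the Per2wt-labelled library (0.878-fold). Pole3, the partner of Pole4, went the other way, at 41.4 FPKM in the Per2def-labelled and 35.5 FPKM in the Per2wt-labelled library (1.17-fold). Pold3, an accessory subunit of polymerase delta, was at 13.3 FPKM in the Per2def-labelled and 12.98 FPKM in the Per2wt-labelled library (1.03-fold). These genes were also picked after their values were seen. Short transcripts as a whole had lower differences, as described above, but the part of length in these genes was not tested. The longest coding transcripts have 670 bases for Rpa3, 913 for Pold4, 1769 for Pole4, 1805 for Pole3 and 3069 for Pold3.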
